A study of Mus musculus with 2 samples.

Results

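The genes described here are 9 members of the epidermal growth factor (EGF) family and its receptors, of 33696 genes in the count matrix. There were 6 ligand genes, Areg, Ereg, Hbegf, Tgfa, Btc and Nrg1, and 3 receptor genes, Egfr, Erbb2 and Erbb3. They were chosen by name, and their levels were read in 5 classes of cells that were set by other genes. The series holds 2 single-cell RNA libraries from mouse subcutaneous tumours of 4T1, a breast cancer line that grows in mice with an intact immune system, 1 library for each treatment. The treated library came from tumours labelled WT and given PCN, and the control library from tumours labelled WT and given PBS, a salt solution. The series title names PATCH, and the labels do not say what PCN is, how it relates to PATCH, nor its dose, the host strain, or the age and number of the mice. Only the treated library is described, since control counts were not analysed here.

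EGF family ligands are made as membrane-bound precursors, which proteases of the ADAM group cut free at the cell surface. Amphiregulin (Areg), epiregulin (Ereg), heparin-binding EGF-like growth factor (Hbegf), transforming growth factor alpha (Tgfa) and betacellulin (Btc) bind the EGF receptor (Egfr), and some also bind Erbb4. Neuregulin 1 (Nrg1) binds Erbb3 and Erbb4. Erbb2 binds no known ligand and signals as the partner of the other receptors, while Erbb3 has little kinase activity of its own. Active receptors signal through the adaptors Grb2 and Sos1 to Ras and the kinase ERK, which in turn induces inhibitors of the pathway such as the Sprouty proteins. In breast tissue the family is known for growth of the epithelium, and ERBB2 is amplified in a group of human breast cancers.

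The treated library held 12309 barcodes and 96873409 unique molecular identifiers (UMIs, counts of captured RNA molecules). The authors kept 10835 cells holding 60652188 UMIs in all, and the median kept cell had 3575 UMIs from 1512 genes. They left out 1474 barcodes, of which 1097 had 20000 UMIs or more, and no kept cell reached that number. All 10835 treated barcodes of the authors' cell list were in the matrix, against 37 of 11643 control barcodes, and 33 of these 37 sequences were also in the treated list. Levels are given in counts per 1000000 UMIs of the class (CPM). The 95% intervals in brackets are exact Poisson for levels, exact Clopper-Pearson for shares and exact conditional for ratios, and they cover counting error only. A single library allows no test between conditions, so differences are read against counting error alone.

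Cells were put in the first class whose threshold their share of UMIs met. The macrophage class held 4672 cells, with a median of 7168.5 UMIs per cell, and the neutrophil class 3518 cells, with 1698 UMIs. The fibroblast class held 325 cells (median 11662 UMIs), the tumour class 322 (11176.5 UMIs) and the T/NK class 238 (2916.5 UMIs), and 1760 cells met no threshold (2699 UMIs). Markers that the class rule did not use were highest in the class they belong to. Krt19, Krt14, Cldn4, Cldn7, Cdh1 and Elf3, genes of epithelial cells, summed to 711 CPM in the tumour class, against 9.03 to 39.1 CPM in the other classes and the unclassified cells. The check markers of fibroblasts summed to 15688 CPM, those of neutrophils to 9441 CPM, those of macrophages to 2624 CPM and those of T and NK cells to 1869 CPM in their own class. Of the kept cells, 345 (3.18%) met more than 1 class rule, and 311 of these were in the neutrophil class, the first in the order.

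Cells close to a threshold were few beside the size of each class. Within 10% of it, 7 cells stood just inside and 17 just outside the tumour class, 5 and 1 the fibroblast class, 6 and 8 the T/NK class, 71 and 73 the neutrophil class, and 92 and 172 the macrophage class. Cells just outside a threshold could be in any other class. For the tumour class, Hbegf was at 332 CPM in the 7 cells just inside and had no UMI in the 17 just outside, few cells to compare. For the macrophage class, Nrg1 was at 162 CPM just inside and 149.7 CPM just outside, whereas Ereg was at 43.6 CPM inside and 152 CPM outside. Areg was at 121 CPM inside and 97.8 CPM outside, and Hbegf at 139 CPM and 100 CPM.

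Ligand and receptor RNA were spread over different classes of the treated tumour. Macrophages, the largest class, held 64.5% of all ligand UMIs of the family, led by Nrg1 and Areg, close to their 61.1% of all UMIs. Fibroblasts held 70.2% of all receptor UMIs, nearly all of them Egfr, on 6.01% of all UMIs. Tumour cells held 10.2% of the ligand UMIs on 5.49% of all UMIs. Tumour cells had the highest levels of Tgfa, Hbegf and Erbb2. Fibroblasts had the highest levels of Ereg and Egfr. Egfr was thus highest outside the tumour class, at 395 CPM in fibroblasts against 22.8 CPM in tumour cells.

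**Figure D1:**
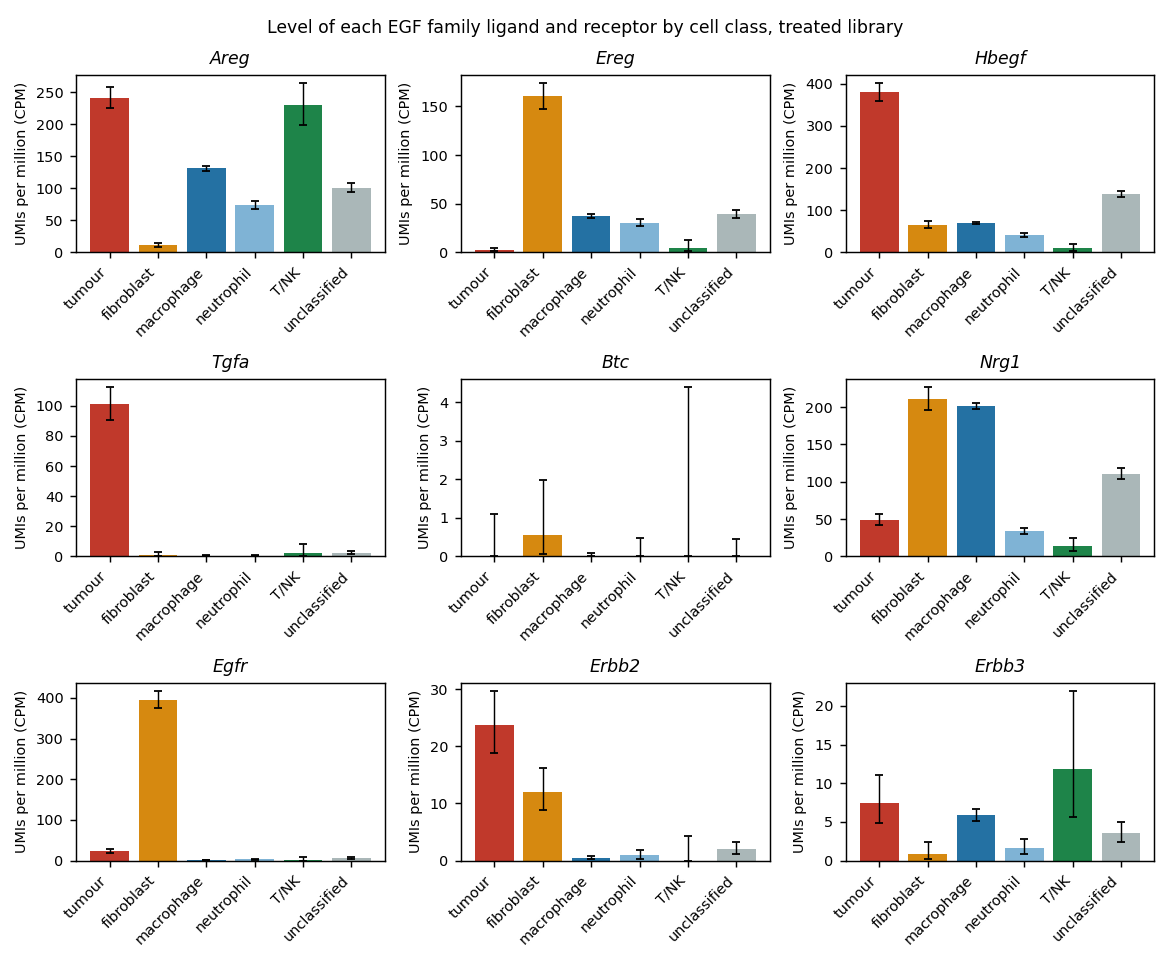
Level of each of the 9 genes, in CPM ( linear axis from 0, its own scale in each panel), in the 5 classes and the unclassified cells of the treated library; bars are class sums and error bars exact Poisson 95% intervals of counting error. Tgfa stands at 101 CPM in the tumour class and Egfr at 395 CPM in the fibroblast class, both far above the other bars of their panels.

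Of the 9 genes, 8 had at least 20 UMIs in the kept cells and could be set against all genes. A gene was called higher in a class when its CPM was at least 2 times that of all other kept cells and the interval of the ratio lay above 1, and lower at 0.5 times or less with the interval below 1. In the tumour class 4 members were higher (Areg, Hbegf, Tgfa and Erbb2), where 23.8% of all 16445 genes were, and 2 were lower (Ereg and Nrg1), where 18.6% of all genes were. In the fibroblast class 3 members were higher (Ereg, Egfr and Erbb2; 17.9% of all genes) and 3 lower (Areg, Tgfa and Erbb3; 18% of all genes). The fibroblast calls of Tgfa and Erbb3 rest on 4 and 3 UMIs and were both lost after thinning to 1000 UMIs per cell, and the log2 ratio of Tgfa was 0.87 as a mean of single-cell CPM and -2.44 in the sums. In the macrophage class 1 member was higher (Nrg1; 6.3% of all genes) and 3 were lower (Tgfa, Egfr and Erbb2; 25.2% of all genes). In the neutrophil class no member was higher (9.62% of all genes) and 6 were lower (all tested except Areg and Ereg; 53.3% of all genes). In the T/NK class 1 member was higher (Erbb3, on 10 UMIs; 13.9% of all genes) and 4 were lower (Ereg, Hbegf, Nrg1 and Egfr; 15.1% of all genes). After thinning, Erbb3 and Egfr missed the call in the T/NK class, at log2 ratios of 2.10 and -2.82.

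Tgfa was a tumour-class gene. It was at 101 CPM (90.5 to 112) in the tumour class, against 0.266 CPM in neutrophils, 0.539 CPM in macrophages, 1.098 CPM in fibroblasts, 2.38 CPM in the T/NK class and 2.55 CPM in unclassified cells. The tumour class held 87.3% of its 385 UMIs (83.5 to 90.4%), although it held 5.49% of all UMIs. Its level was 118 times that of all other kept cells (87.3 to 163). A UMI of Tgfa was found in 46.6% of tumour cells, against 0.428% of macrophages, whose median depth was 7168.5 UMIs where that of tumour cells was 11176.5 UMIs. After each cell was thinned to 1000 UMIs, the shares were 7.91% and 0.0659%. In macrophages Tgfa stood at 2.999 UMIs per 100 UMIs of the keratins Krt8 and Krt18 (1.82 to 4.67), a ratio whose interval includes the 3.41 of the tumour class itself. In unclassified cells that ratio was 12.8 (7.72 to 20.2), above the tumour class.

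The RefSeq sequence of the 250 bases before the gene start is shown for Tgfa (GRCm38.p6, chr6:86194972-86195221, plus strand), the ligand most restricted to 1 class. Capitals mark GC boxes (GGGCGG, searched on both strands), 126 and 15 bases before the start. No cAMP response element (TGACGTCA), AP-1 site (TGANTCA) or TATA box (TATAAA) was in this window on either strand. Among 27025 promoters of this length, 32.9% held a GC box. A match is a description of the letters and not of a bound site.
Tgfa: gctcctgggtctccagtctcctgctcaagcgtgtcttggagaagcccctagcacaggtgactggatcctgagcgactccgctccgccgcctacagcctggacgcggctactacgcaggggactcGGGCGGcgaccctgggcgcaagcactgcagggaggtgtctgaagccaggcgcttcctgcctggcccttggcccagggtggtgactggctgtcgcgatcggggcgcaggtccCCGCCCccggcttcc

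Hbegf, a ligand that binds heparan sulphate and also serves as the diphtheria toxin receptor in humans, was highest in the tumour class. A cluster of shallow tumour cells, given below, was an exception. Over the whole tumour class Hbegf was at 380.2 CPM (359.5 to 402), 5.08 times the level of the other kept cells (4.77 to 5.41). It was at 138 CPM in unclassified cells, 69.9 CPM in macrophages, 64.8 CPM in fibroblasts, 41.5 CPM in neutrophils and 9.52 CPM in the T/NK class. Macrophages and fibroblasts did not differ beyond their intervals (67.3 to 72.7 CPM in macrophages and 56.8 to 73.6 CPM in fibroblasts). At a depth of 1000 UMIs, 23.7% of tumour cells had an Hbegf UMI, against 7.66% of unclassified cells, 5.16% of macrophages and 0.873% of the T/NK class. Because macrophages were many, they still held 46.7% of the Hbegf UMIs, against 22.8% in the tumour class. With all barcodes of the matrix the log2 ratio of macrophages to the rest was -1.73, and Hbegf was called lower there.

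Areg, which is known from epithelium and, in mice, from regulatory T cells that take part in tissue repair, had its highest levels in 2 unlike classes. It was at 241 CPM (225 to 259) in tumour cells, 2.13 times the other kept cells (1.98 to 2.30). The T/NK class had 229.6 CPM (198 to 264), which did not differ from the tumour class beyond the intervals. Macrophages followed at 131 CPM, unclassified cells at 101 CPM and neutrophils at 73.7 CPM. Fibroblasts were lowest at 10.7 CPM (7.61 to 14.6), a ratio of 0.0842 to the other kept cells. Macrophages held 66.8% of the 7287 UMIs of Areg, close to the 61.1% of all UMIs that this class held.

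The UMIs of Areg were gathered in few cells. In macrophages 735 cells had a UMI, and the 74 of them with the most held 46.7% of the class's Areg UMIs. In the T/NK class 193 UMIs came from 18 cells, and 2 of these held 62.2%, the highest with 86 UMIs. Of these 18 cells, 10 had a UMI of Foxp3, the factor that defines regulatory T cells, and 10 had at least 3 of the markers Foxp3, Il2ra, Ikzf2, Ctla4 and Tnfrsf4. At least 3 of 5 markers of type 2 innate lymphoid cells were found in 3 cells, and no mast cell or basophil marker in any. Over all T/NK cells with 3 such innate lymphoid markers, 23 in number, Areg was at 1235 CPM (1021 to 1480), from 117 UMIs in those 3 cells. The cell with 86 UMIs was among them, so this level rests mostly on a single cell. The 61 T/NK cells with 3 regulatory T markers had 253 CPM (195 to 321), from 66 UMIs in 10 cells. Some Areg-positive cells were in both of these groups, and the 171 T/NK cells in neither had 73.9 CPM (53.0 to 100.2), from 41 UMIs in 7 cells. The class gene Cd3e was found in 14 of the 18 Areg-positive cells. Rora, which is among the innate lymphoid markers, was found in 16 of them. Of the check markers of other classes, 8 of the 18 cells had a neutrophil marker and 4 a macrophage marker, and the part of mixed droplets in the T/NK level was not tested. The ratio of the T/NK class to the other kept cells was 1.94 (1.67 to 2.23), short of the call, which it passed under 4 of the alternatives, with log2 ratios of 1.04 to 1.87.

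The Areg promoter is shown beside the contrast with its neighbour Ereg (RefSeq, GRCm38.p6, chr5:91139349-91139598, plus strand). Capitals mark, from left to right, a cAMP response element 61 bases before the start, a GC box 52 bases before it and a TATA box 31 bases before it. Of the 27025 promoters, 1.62% held the first motif, 32.9% the second and 13.0% the third, and 6.87% held an AP-1 site, which was not in this window. On chromosome 5, Epgn, Ereg, Areg and Btc follow each other in this order among protein-coding genes.
Areg: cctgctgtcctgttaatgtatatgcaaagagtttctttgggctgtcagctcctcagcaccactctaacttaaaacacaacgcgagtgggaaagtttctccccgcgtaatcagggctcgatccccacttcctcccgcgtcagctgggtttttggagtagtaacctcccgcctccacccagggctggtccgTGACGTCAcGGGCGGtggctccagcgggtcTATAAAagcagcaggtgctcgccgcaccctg

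Ereg, whose gene lies beside Areg, had another distribution. It was at 161 CPM in fibroblasts (148 to 174), 4.71 times the other kept cells (4.29 to 5.17), where Areg was lowest. In tumour cells Ereg was at 2.40 CPM (1.04 to 4.74), from 8 UMIs in 3 cells, a ratio of 0.0547 to the other kept cells. It was at 39.1 CPM in unclassified cells, 37.2 CPM in macrophages, 30.4 CPM in neutrophils and 4.76 CPM in the T/NK class. Unclassified cells and macrophages did not differ beyond their intervals (34.95 to 43.6 CPM in unclassified cells and 35.3 to 39.2 CPM in macrophages). At a depth of 1000 UMIs, 8.12% of fibroblasts had an Ereg UMI, against 1.91% of macrophages and 0 of 278 tumour cells, which allows a share of up to 1.08%. Fibroblast RNA free in the droplets would carry Ereg with Col3a1 at 0.828 UMIs per 100 Col3a1 UMIs, the ratio in fibroblasts. Macrophages had 58.2 (54.4 to 62.2) and neutrophils 31.0 (26.6 to 36.0). This ratio covers fibroblast RNA only. Macrophages held 54.6% of the Ereg UMIs, and the part of macrophage RNA in the neutrophil level was not tested.

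Nrg1 was shared by fibroblasts and macrophages. Its level was 211 CPM in fibroblasts (196 to 227) and 201 CPM in macrophages (197 to 206), which did not differ beyond the intervals. Unclassified cells had 110.4 CPM, tumour cells 49.3 CPM, neutrophils 33.9 CPM and the T/NK class 14.3 CPM. Macrophages were 2.25 times the other kept cells (2.15 to 2.36), tumour cells 0.3001 times and neutrophils 0.193 times. Macrophages held 78.0% of the 9580 Nrg1 UMIs (77.1 to 78.8%), with up to 155 UMIs in a single cell. With all barcodes of the matrix in place of the kept cells, the log2 ratio of macrophages was 0.73 in place of 1.17, which ends the call, and fibroblasts passed it at 1.17 in place of 0.45. With class thresholds doubled, macrophages missed the call at 0.97. At a depth of 1000 UMIs, 13.0% of macrophages and 11.2% of fibroblasts had a UMI, against 1.87% of neutrophils. The symbol Nrg1 stood on 2 rows of the matrix, and the values are those of ENSMUSG00000062991, since the other row had no UMI in the kept cells.

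Btc was near the limit of detection. The kept cells held 2 UMIs, in 2 fibroblasts, and no level was compared. The count of 0 in macrophages allows a level of up to 0.0809 CPM, and that in tumour cells up to 0.902 CPM.

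**Figure D2:**
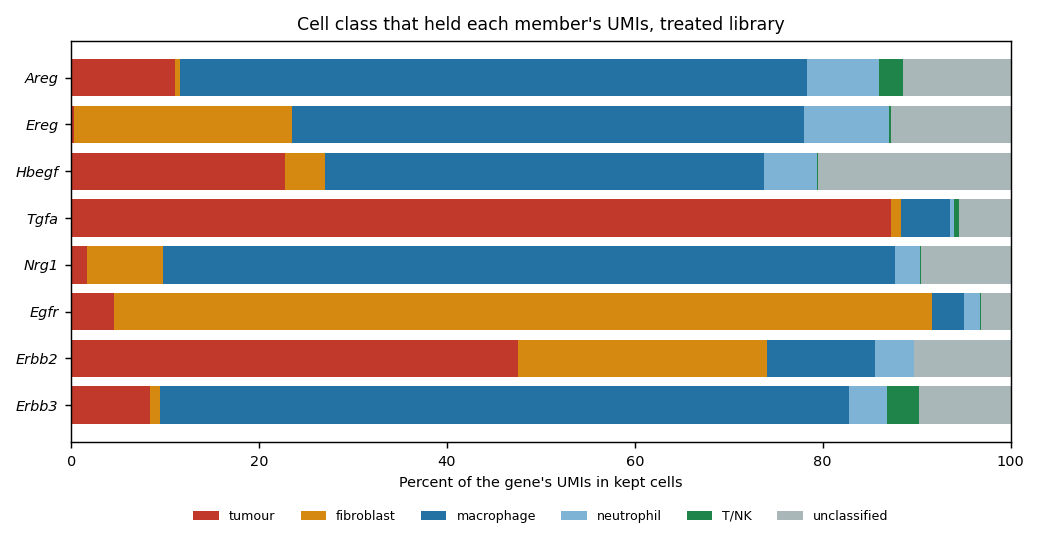
Percent of each gene's UMIs in the kept cells of the treated library (horizontal axis) that each class held, as stacked bars for 8 genes; Btc, with 2 UMIs, is left out. Macrophages make up most of the Areg, Ereg, Nrg1 and Erbb3 bars, tumour cells 87.3% of Tgfa and fibroblasts 87.1% of Egfr.

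Egfr, the receptor of 5 of the ligands, was a fibroblast-class gene. It was at 395 CPM (375 to 416) in fibroblasts, from 1439 UMIs, 105 times the other kept cells (91.1 to 122). A UMI was found in 80.9% of fibroblasts (76.2 to 85.1%), and in 25.9% after thinning to 1000 UMIs. In tumour cells Egfr was at 22.8 CPM (18.0 to 28.6), from 76 UMIs in 56 cells, 17.4% of the class and 2.16% after thinning. The tumour level was 0.830 times that of all other kept cells (0.651 to 1.05), a comparison that includes the fibroblasts. With all barcodes the log2 ratio was -1.90 in place of -0.26, and -1.84 when the other classes were weighted equally, and Egfr was then called lower in tumour cells. Macrophages had 1.54 CPM, the T/NK class 2.38 CPM, neutrophils 3.59 CPM and unclassified cells 6.32 CPM.

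Counts of the collagen gene Col3a1, which fibroblasts make, were set beside those of Egfr, since free fibroblast RNA would carry both. A UMI of Col3a1 was found in 35.9% of macrophages and 14.8% of neutrophils (median depths of 7168.5 and 1698 UMIs), cells not known to make it. Per 100 UMIs of Col3a1, fibroblasts had 2.04 UMIs of Egfr and macrophages 2.40 (1.81 to 3.12), and these intervals overlap. The T/NK class had 2.99 (0.354 to 11.2) and neutrophils 3.65 (2.39 to 5.36), of which 14 of 27 UMIs lay in 1 cell. Tumour cells had 41.5 (31.4 to 54.6), above the fibroblast ratio. Expression of Egfr in macrophages cannot be told apart from free RNA by these counts.

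The Egfr promoter is shown because it was the receptor most restricted to 1 class (RefSeq, GRCm38.p6, chr11:16751953-16752202, plus strand). Capitals mark a GC box on the opposite strand, 9 bases before the start, and the other 3 motifs were not in this window. The Erbb2 promoter (chr11:98412234-98412483, plus strand) held none of the 4 motifs and has no capitals.
Egfr: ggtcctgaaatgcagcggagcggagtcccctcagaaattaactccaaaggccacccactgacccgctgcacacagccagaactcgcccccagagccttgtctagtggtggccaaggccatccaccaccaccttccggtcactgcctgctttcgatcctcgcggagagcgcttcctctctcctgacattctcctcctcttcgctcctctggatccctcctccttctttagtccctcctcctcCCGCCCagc
Erbb2: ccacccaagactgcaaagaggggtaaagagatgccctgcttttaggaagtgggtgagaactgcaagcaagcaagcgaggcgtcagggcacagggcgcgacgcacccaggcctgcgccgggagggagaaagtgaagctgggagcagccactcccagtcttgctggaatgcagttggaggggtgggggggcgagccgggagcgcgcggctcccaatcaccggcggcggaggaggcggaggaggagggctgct

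Erbb2 was highest in tumour cells and next in fibroblasts. It was at 23.7 CPM in tumour cells (18.8 to 29.6), 15.6 times the other kept cells (11.4 to 21.5). Fibroblasts had 12.1 CPM (8.78 to 16.2), 5.64 times the other kept cells (3.90 to 8.03), a call that was missed with all barcodes (log2 ratio of 0.94 in place of 2.51). Unclassified cells had 2.06 CPM, neutrophils 0.930 CPM and macrophages 0.512 CPM. No UMI was found in the T/NK class, which allows up to 3.57 CPM. All these levels rest on 166 UMIs in 140 cells, with at most 4 in a cell. A UMI was found in 18.9% of tumour cells and 12.0% of fibroblasts. After thinning the order was the other way, with 2 of 278 tumour cells (0.719%, 0.0872 to 2.57%) and 6 of 320 fibroblasts (1.875%, 0.691 to 4.04%), shares near the level of 1 UMI whose intervals overlap.

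Erbb3, the receptor of Nrg1, was low in every class. It was at 11.9 CPM in the T/NK class (5.70 to 21.9), 7.51 CPM in tumour cells (4.86 to 11.1), 5.88 CPM in macrophages (5.12 to 6.71), 3.52 CPM in unclassified cells, 1.59 CPM in neutrophils and 0.824 CPM in fibroblasts. The intervals of the T/NK, tumour and macrophage classes overlap, so the order of these 3 is not set. The T/NK call rests on 10 UMIs in 9 cells, with a ratio of 2.48 (1.18 to 4.63). After thinning, with a UMI left in 3 T/NK cells, the call was lost although the log2 ratio was 2.10, in place of 1.38. Macrophages held 73.4% of the 297 UMIs. Tumour cells exceeded the other kept cells by a ratio of 1.58 (1.01 to 2.39), short of the call. As a mean of single-cell CPM, the log2 ratio in tumour cells was 2.10 in place of 0.69, and Erbb3 was called higher.

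Ligand and receptor were found in the same cell most often in fibroblasts and tumour cells, the classes with the deepest cells. Of fibroblasts, 82.8% had a UMI of a receptor, 58.5% of a ligand and 49.5% of both. Of tumour cells, 34.5% had a receptor UMI, 74.8% a ligand UMI and 32.3% both. Macrophages had a ligand UMI in 55.8% of cells, a receptor UMI in 5.63% and both in 3.77%. In neutrophils these shares were 13.4%, 0.910% and 0.0853%. At a depth of 1000 UMIs both were found in 5.62% of fibroblasts, 1.80% of tumour cells, 0.132% of macrophages and 0.0335% of neutrophils. The thinning left out 5 fibroblasts, 44 tumour cells, 120 macrophages and 531 neutrophils with fewer UMIs.

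Pairs of members were counted in the unthinned cells, where deep cells show more genes. In tumour cells Hbegf and Tgfa were both found in 131 cells, which is 62.7% of those with Hbegf and 87.3% of those with Tgfa. Areg and Hbegf shared 116 tumour cells, 84.1% of those with Areg and 55.5% of those with Hbegf. Of all tumour cells, 64.9% had Hbegf, 46.6% Tgfa and 42.9% Areg, and the part of depth in these pairs was not tested. In fibroblasts Nrg1 and Egfr shared 101 cells, 81.5% of those with Nrg1 and 38.4% of those with Egfr. These were close to the shares of all fibroblasts, 80.9% with Egfr and 38.2% with Nrg1. Ereg and Egfr shared 54, which is 84.4% of the Ereg-positive fibroblasts, against 80.9% of all fibroblasts with Egfr. In macrophages the neighbouring genes Areg and Ereg shared 157 cells, 21.4% of those with Areg and 52.5% of those with Ereg, against 15.7% of all macrophages with Areg. Areg with Nrg1 was found in 326 macrophages, 44.4% of those with Areg, against 34.7% of all macrophages with Nrg1.

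The ligands divided the macrophages. Cells were clustered with the 9 genes kept out, which gave 24 clusters, described here by their leading genes. Nrg1 was highest, at 352 CPM (339.5 to 366), in a cluster of 756 cells led by Adamdec1 and Cx3cr1, and next at 268 CPM in one of 534 cells led by Dmkn, Chil3 and Vcan. In a cluster of 302 cells led by Mmp12, Inhba and Nos2, 61.3% of them unclassified, Nrg1 was at 34.7 CPM (26.9 to 44.1). The same cluster had 266 CPM of Hbegf (244 to 291), 200.1 CPM of Areg and 129 CPM of Ereg. A cluster of 985 cells led by Arg1 and Ccl24 had all 4, with Areg at 238 CPM, Nrg1 at 175 CPM, Hbegf at 141 CPM and Ereg at 99.0 CPM. A cluster of 700 cells led by Ccl8, Cd163 and Lyve1 had Nrg1 at 203 CPM but Areg at 27.2 CPM (23.1 to 31.9) and Ereg at 4.07 CPM.

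Clusters outside the macrophages differed in their ligands as well. A cluster of 121 cells led by Ctsk, Acp5 and Slc9b2, genes known from osteoclasts, had Hbegf at 216 CPM (194 to 240.3) and Areg at 5.69 CPM. A cluster of 87 cells led by Fabp4, Rgs5 and Cdh5, genes of vessels, had Hbegf at 116 CPM (91.8 to 144) and Egfr at 24.6 CPM. The cluster of 75 cells led by Gzma, Gzmb and Ccl5 had no Areg UMI (0 to 10.7 CPM). Among neutrophil clusters, Areg reached 133 CPM in the one led by Ccl3, which also had Ereg at 64.4 CPM and Hbegf at 57.7 CPM. Areg was at 1.61 CPM in the one led by Ngp, Camp and Ltf, genes of immature granules.

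Fibroblasts fell in 2 clusters with different members. The cluster led by Cfd, Tagln, Tnc and Acta2 (67 cells) had Hbegf at 223 CPM (189 to 262), against 34.2 CPM (27.9 to 41.3) in the cluster led by Dcn, Col3a1 and Ptx3 (282 cells). Egfr was at 146 CPM (119 to 178) in the Acta2 cluster, against 443 CPM (419.8 to 467) in the Dcn cluster. Ereg was at 192 CPM (160.4 to 228) in the Acta2 cluster and 149 CPM (135 to 163) in the Dcn cluster, intervals that just overlap. Nrg1 was at 235 CPM (200.1 to 275) in the Acta2 cluster and 199.7 CPM (184 to 216) in the Dcn cluster. Erbb3 was at 7.16 CPM (4.48 to 10.8) in the Dcn cluster, from 22 UMIs in 9 cells, and had no UMI in the Acta2 cluster. The fibroblast class held 3 Erbb3 UMIs, so most of these 22 lay in cells of the cluster outside that class. What these cells are was not tested.

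**Figure D3:**
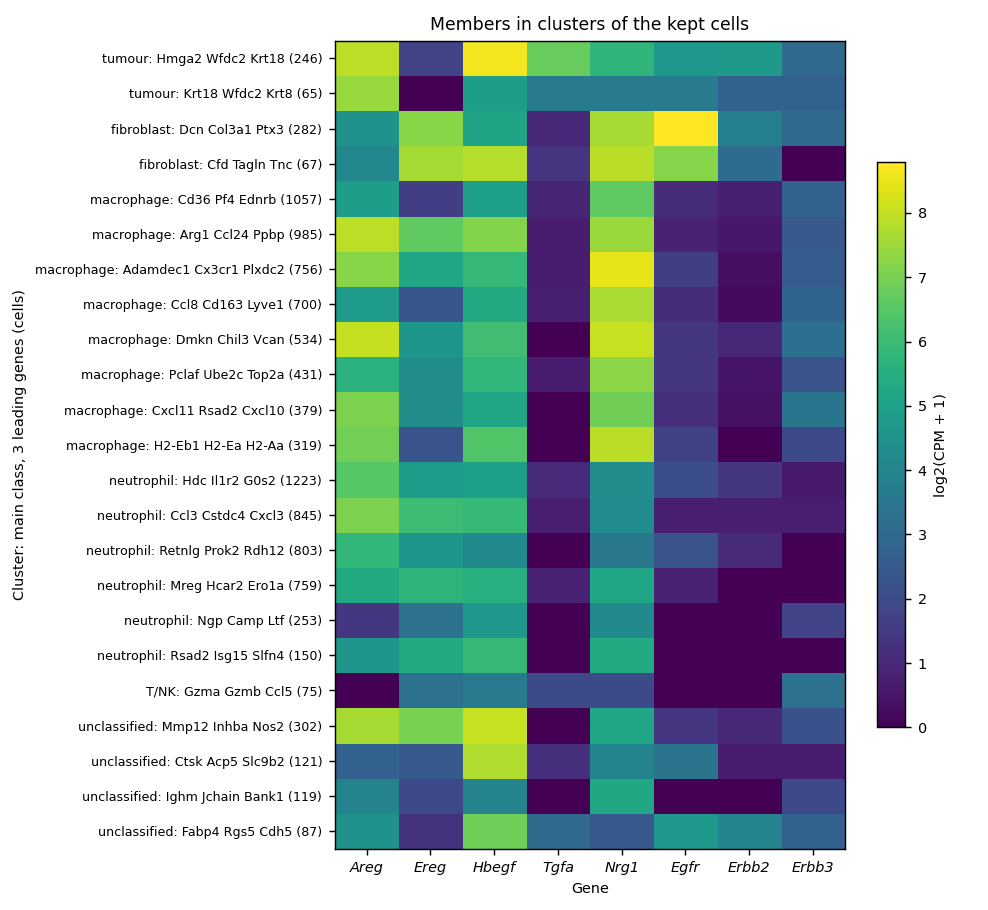
Level of 8 genes, as log2(CPM + 1) on a colour scale, in clusters of the kept cells (rows, named by the class most of their cells belong to, 3 leading genes and the number of cells). Egfr is bright in the 2 fibroblast rows, Tgfa in 1 tumour row, and Nrg1 in most macrophage rows. Nrg1 is dimmer in the row led by Mmp12, Inhba and Nos2, most of whose cells are unclassified.

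A split of the macrophages by Arg1, which codes for arginase 1, also separated the ligands within the class. Ereg was at 52.0 CPM (49.2 to 54.9) in the 2691 macrophages with an Arg1 UMI, against 5.36 CPM (4.12 to 6.86) in the 1981 without. Areg was at 159 CPM with Arg1 and 70.7 CPM without, and Hbegf at 82.2 CPM with and 43.5 CPM without. Nrg1 differed less, at 207 CPM with Arg1 and 189 CPM without. Macrophages with a UMI of Mki67, a gene of dividing cells, had Nrg1 at 258 CPM (248 to 269) and Ereg at 29.0 CPM, against 184 CPM and 39.7 CPM in those without. A UMI of Arg1 or Mki67 is found more easily in deep cells, and the median depth was 12235.5 UMIs with Mki67 and 6388.5 UMIs without.

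Neutrophils were split by Ccl3, a chemokine of activated tumour neutrophils, and Retnlg, a gene of blood neutrophils. Hbegf was at 73.9 CPM (60.7 to 89.1) in the 842 cells with Ccl3 and no Retnlg, against 17.1 CPM (12.3 to 23.1) in the 1024 cells with Retnlg and no Ccl3. Areg was at 111 CPM (94.6 to 129) in the first and 36.2 CPM (29.1 to 44.6) in the second. Ereg was at 32.3 CPM (23.8 to 42.8) in the first and 12.2 CPM (8.24 to 17.4) in the second. The 1094 neutrophils with both genes had the highest Ereg, at 45.7 CPM (38.1 to 54.4), with Areg at 86.1 CPM and Hbegf at 49.3 CPM. The 558 with neither had Areg at 76.7 CPM, Ereg at 29.4 CPM and Hbegf at 28.1 CPM.

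The tumour class was split by Mki67 as well, into 61 cells with a UMI (median depth 12947 UMIs) and 261 without (10543 UMIs). Hbegf was at 383 CPM with Mki67 and 379.5 CPM without, and Tgfa at 110.1 CPM with and 98.4 CPM without. Egfr was at 13.4 CPM (6.44 to 24.7) with Mki67 and 25.6 CPM (19.8 to 32.5) without. Ereg was at 9.40 CPM (3.78 to 19.4) with Mki67, from 7 UMIs in 2 cells, and 0.387 CPM (0.00980 to 2.16) without, from 1 UMI. Of the 8 members with a UMI in this class, Ereg was the one whose intervals did not overlap. This Ereg difference rests mostly on 1 cell, which held 6 of the 8 Ereg UMIs of the class. A cluster of 65 cells led by Krt18, Wfdc2 and Krt8, 93.8% of them in the tumour class, was shallow (median 1223 UMIs). It had Hbegf at 28.6 CPM (9.27 to 66.6) from 5 UMIs, and Tgfa at 11.4 CPM (1.38 to 41.3) from 2. The cluster of 246 cells led by Hmga2 and Wfdc2 (median 13638.5 UMIs) had Hbegf at 394 CPM (373 to 416) and Tgfa at 106 CPM (94.7 to 117). Areg was at 171 CPM (116 to 245) in the shallow cluster and 240 CPM (223 to 257) in the other.

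The UMI limit of the authors left out many cells of these classes. The limit left out 394 tumour barcodes, more than the 322 kept, 235 fibroblast barcodes and 344 macrophage barcodes. In tumour barcodes Areg was at 247 CPM at or above 20000 UMIs and 241 CPM in kept cells, and Tgfa at 85.1 CPM (80.6 to 89.9) and 101 CPM (90.5 to 112). Hbegf was higher in the left-out tumour barcodes, at 470.0 CPM (459 to 481), against 380.2 CPM (359.5 to 402) in kept cells, and Egfr lower, at 12.2 CPM (10.54 to 14.1) against 22.8 CPM (18.0 to 28.6). An Hbegf UMI was found in 98.0% of these deep barcodes. Btc had 10 UMIs there, or 0.658 CPM (0.316 to 1.21), which is under the 0.902 CPM that the count of 0 in kept tumour cells allows, so a difference was not detectable.

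Left-out fibroblast barcodes differed more. Nrg1 was at 347 CPM (334 to 361) in left-out fibroblast barcodes, against 211 CPM (196 to 227) in kept ones. Hbegf was at 129 CPM (121 to 137) in left-out and 64.8 CPM (56.8 to 73.6) in kept fibroblasts. Egfr was at 335 CPM (322 to 348) in left-out and 395 CPM (375 to 416) in kept ones. In macrophages Nrg1 was lower in left-out barcodes, at 159.9 CPM (152 to 168), against 201 CPM (197 to 206). Egfr was higher in left-out macrophage barcodes, at 5.14 CPM (3.77 to 6.86), from 46 UMIs in 17 barcodes. In kept macrophages Egfr was at 1.54 CPM (1.16 to 1.99). Whether deep barcodes hold more than 1 cell was not tested.

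**Figure D4:**
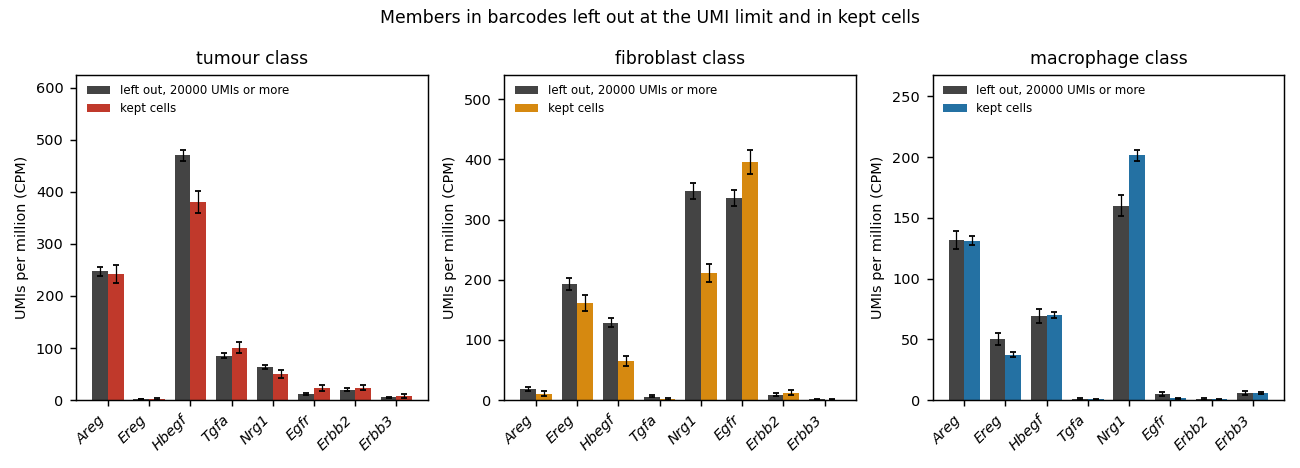
Levels of 8 genes in CPM ( linear axis from 0, its own scale in each panel) in barcodes left out at 20000 UMIs or more (left bar of each pair) and in kept cells (right bar), for 3 classes; error bars are exact Poisson 95% intervals of counting error. Nrg1 and Hbegf are higher in left-out than in kept fibroblasts, and Nrg1 is lower in left-out than in kept macrophages.

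Genes of the pathway around the receptors were read from 5 lists. Of 14 feedback inhibitors of the receptors and of ERK, 9 were higher in tumour cells than in the other kept cells (23.8% of all genes) and 1 was lower (18.6% of all genes), with a median log2 ratio of 1.40 beside 0.21 for all genes. Lrig1, which promotes degradation of ErbB receptors, was at 221 CPM in tumour cells and 7.19 CPM in the other kept cells, 30.8 times. Spry1, Spry4 and Spry2, the Sprouty inhibitors of Ras signalling, were 7.52, 6.84 and 3.99 times the other kept cells. In fibroblasts 7 of 14 were higher and 3 lower (17.9% and 18% of all genes; median 0.42 beside -0.07). There Lrig3, a relative of Lrig1, was at 50.8 CPM, 46.0 times the other kept cells, and Errfi1, which binds and inhibits the kinase of EGFR, at 919 CPM, 7.97 times. Dusp5, an ERK phosphatase, was at 34.0 CPM in fibroblasts, 0.177 times.

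In macrophages 0 of the 14 inhibitors were higher (6.3% of all genes), 7 were lower (25.2% of all genes) and 7 were not called (median -0.69 beside -0.15 for all genes). Lrig1 was at 0.944 CPM there, 0.0200 times the other kept cells, whereas Spred1, a Sprouty-related inhibitor, was at 1.83 times (1.75 to 1.91) and Dusp6, an ERK phosphatase, at 1.82 times (1.70 to 1.94), both short of the call. In neutrophils 0 were higher and 11 were lower (9.62% and 53.3% of all genes; median -2.36 beside -1.37). The T/NK class had 3 higher and 4 lower (13.9% and 15.1% of all genes; median 0.42 beside 0.12). The counts and medians of the lists below stand beside these same shares and medians for all genes in each class.

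ERK-induced targets were mixed. In tumour cells 3 of 9 were higher and 1 lower, with a median of 0.86. Etv4, an ETS transcription factor, was at 51.7 CPM, 31.9 times the other kept cells, cyclin D1 (Ccnd1) at 878 CPM, 10.9 times, and Fosl1, an AP-1 subunit, at 141 CPM, 7.82 times. Egr1 was at 260.3 CPM in tumour cells and 818 CPM in the other kept cells, 0.318 times. In fibroblasts 4 were higher and 2 lower (median 0.69), with Myc at 119.97 CPM, 6.67 times, and Egr1 at 2040 CPM, 2.88 times the other kept cells. Macrophages had 1 higher (Etv5, 2.38 times) and 3 lower (median -0.68), neutrophils 2 higher and 5 lower (-1.29), and the T/NK class 0 higher and 8 lower (-2.90). Egr1 and other early genes respond to many signals, and the part of tissue dissociation in their levels was not tested.

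Of 9 genes of ligand shedding, fibroblasts had 4 higher and 3 lower (median -0.06 beside -0.07 for all genes). Adam12, a protease of ligand precursors, was at 422 CPM there, 42.4 times the other kept cells, and Rhbdf1, a carrier of the main sheddase ADAM17, at 26.4 CPM, 11.6 times. Its relative Rhbdf2 was at 8.79 CPM, 0.167 times. Tumour cells had 3 higher and 1 lower (median 0.13 beside 0.21 for all genes), with Bace1, a protease that cuts Nrg1, 15.8 times and Rhbdf1 6.55 times the other kept cells. Macrophages had 0 higher and 4 lower (median 0.04) and neutrophils 1 higher (Adam19, 108 CPM, 6.91 times) and 6 lower (median -1.47). The T/NK class had 2 higher and 2 lower (median -0.69).

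Of 9 adaptors, tumour cells had 2 higher (Plcg1, 3.11 times, and Sos1, 2.46 times) and 2 lower (Gab1, 0.173 times, and Grb2, 0.425 times), with a median of 0.15. Fibroblasts had 2 higher and 3 lower (median -0.76), macrophages 1 higher and 1 lower (0.42), neutrophils 0 higher and 4 lower (-0.98), and the T/NK class 2 higher and 2 lower (-0.05). The macrophage gene was Gab1, a docking protein, at 234 CPM, 3.09 times the other kept cells.

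Of the other EGF family genes, 5 of 6 had at least 20 UMIs, and Nrg3, with 15, did not. Tumour cells had 1 higher (Nrg2, 2.80 times) and 1 lower (Nrg4, 0.339 times), fibroblasts 0 higher and 2 lower (Nrg2 and Nrg4), and macrophages 0 higher and 1 lower. The medians were -0.29 in tumour cells, -1.76 in fibroblasts, 0.06 in macrophages, -1.36 in neutrophils and 0.13 in the T/NK class. Neutrophils had 1 higher and 2 lower, and the T/NK class none in either direction. The gene higher in neutrophils was Epgn, the neighbour of Ereg, with 19 of its 26 UMIs in neutrophils, and it was named after its value was seen. Erbb4, the remaining receptor, had 32 UMIs in all.

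**Figure D5:**
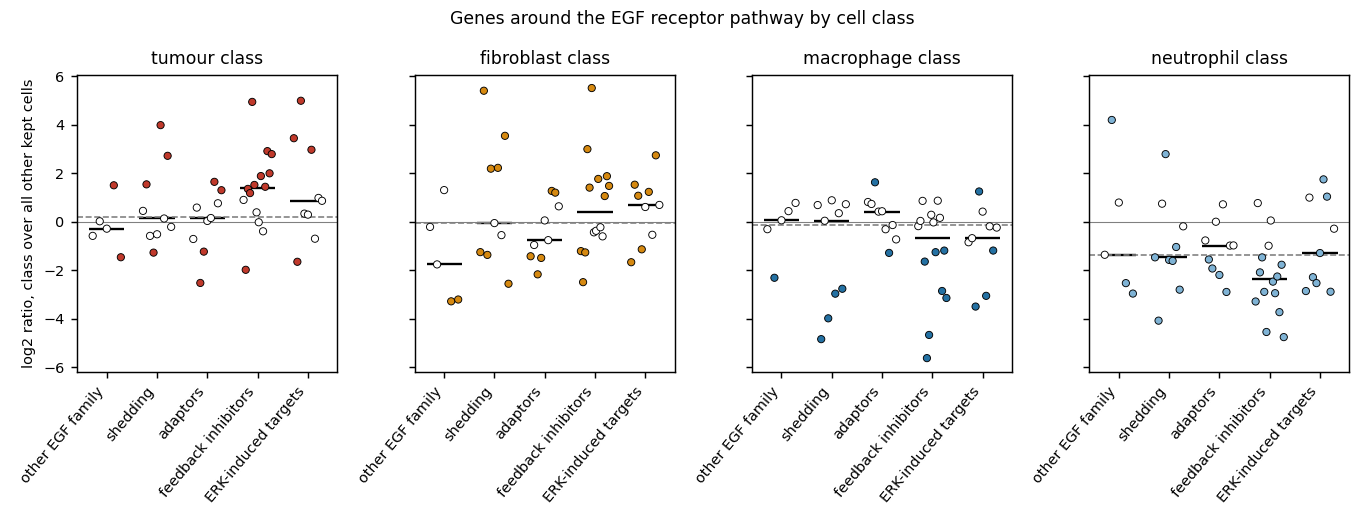
Log2 ratio of each gene of 5 pathway lists, class over all other kept cells (points, filled where called at 2-fold), in 4 classes; black bars are list medians and the dashed line is the median of all genes. The feedback inhibitors have a median of 1.40 in tumour cells and -2.36 in neutrophils.

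Across the 24 clusters, the genes whose log2(CPM + 10) followed a member most closely were named, among genes with at least 500 UMIs. These correlations share 1 library and differ in depth between clusters, and they carry no p. Egfr was followed by Dclk1, Ror1 and Pdgfra, each with a Pearson r of 0.97, and Pdgfra is a receptor that marks fibroblasts. Tgfa was followed by Fermt1 (0.95), Gm49890 (0.95) and Npnt (0.94). Nrg1 was followed by Slc8a1 (0.86), Lpar1 (0.85) and Hgf (0.84), the last a growth factor that binds the receptor Met. Hbegf was followed by Slc22a4 (0.77), Sav1 (0.77) and Sdc1 (0.76), a heparan sulphate proteoglycan. Ereg was followed by Gm56730 (0.77), Dram1 (0.73) and F3 (0.73), Areg by Arl4c (0.71), Lsr (0.64) and 1700016P03Rik (0.61), and Erbb3 by Utp23 (0.81), Tbc1d9b (0.81) and Mndal (0.80).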

How the data were processed

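Single-cell RNA from 1 treated tumour library was analysed. The authors deposited unnormalized UMI counts for each gene and barcode. Per the file headers, Cell Ranger 8.0.1 wrote them. STAR is listed beside Cell Ranger in the submitters' processing notes. Neither build nor annotation is named there (not given in the sources used here). The authors' filter on cells is not stated either; a UMI maximum is visible in the values. The labels' protocols name Chromium 3′ v3 reagents.

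Class sums of UMIs (first match of the class rule, neutrophil, fibroblast, tumour, T/NK, macrophage) were divided by the class total. Each was set against all other kept cells, and the interval of the ratio is exact, conditional on the total count of the gene. Median log2 ratios have 0.5 counts added to each sum. The zero limit was 3 counts. Shares were recomputed after thinning each cell to 1000 UMIs. The ratio step was tested on simulated data.

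The class thresholds, in percent of a cell's UMIs, were 2 for neutrophils (S100a8, S100a9, Csf3r, G0s2), 0.5 for fibroblasts (Col1a2, Col3a1, Dcn), 0.1 for tumour cells (Krt8, Krt18, Krt7, Epcam), 0.1 for T/NK cells (Cd3e, Cd3g, Trbc2, Ncr1) and 0.3 for macrophages (C1qa, C1qb, Csf1r, Apoe, Lyz2).

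The Leiden method ran at resolution 1 on 30 components of 2000 variable genes, with 15 neighbours (Python 3.11.15, numpy 2.4.6, scipy 1.17.1, scanpy 1.11.5, leidenalg 0.10.2, figures with matplotlib 3.10.9). Scrublet marked 0 cells, so it had not worked, and leaving out the 5% scoring highest says nothing about doublets. Free RNA was not subtracted.

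The planned comparison of treated with control tumours was not run, since control counts were not analysed here. The members and lists were chosen with earlier results of these data known. Named beside the members were, of each list and class, up to 4 genes with the largest called ratio and at least 50 UMIs, and for each member with at least 200 UMIs the 3 genes most like it. Epgn, Nrg3, Erbb4, and Spred1 and Dusp6 in macrophages, were named outside this rule. Of the genes under the rule a subset is printed, and clusters were picked after their values were seen. The result for 1 cluster is not reported here, and the cluster is not drawn. Promoter sequences of 5 of the 9 members were found in the RefSeq table of GRCm38.p6.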

Additional observations from a re-analysis of the deposited data

Results flagged for a closer look

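The 377 barcodes that were left out although they had under 20000 UMIs, 1060890 UMIs in all, are not part of the levels above. They held UMIs of 7 members above the limit of 3 that a count of 0 allows. These were 198 UMIs of Nrg1 (187 CPM), 96 of Hbegf (90.5 CPM), 47 of Areg (44.3 CPM), 38 of Ereg (35.8 CPM), 36 of Tgfa (33.9 CPM), 24 of Egfr (22.6 CPM) and 9 of Erbb2 (8.48 CPM). Over all kept cells the levels were 158 CPM for Nrg1, 91.6 CPM for Hbegf, 120.1 CPM for Areg, 41.7 CPM for Ereg, 6.35 CPM for Tgfa, 27.3 CPM for Egfr and 2.74 CPM for Erbb2. No reason for leaving these barcodes out was tested.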

How the results depend on the processing

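Of 80 counts of members called in a class under 8 alternatives, 74 were within 1.5 times the values above. The count higher in the T/NK class was 2 in place of 1 with the mean over cells, with thresholds doubled and with the other classes at equal weight, when Areg was also called (log2 ratios of 1.06, 1.87 and 1.04; after thinning it was called at 1.12, where Erbb3 was not, at 2.10 on fewer UMIs). The count higher in the macrophage class was 0 in place of 1 with all barcodes and with thresholds doubled, with Nrg1 at 0.73 and 0.97 on the log2 scale, against 1.17. The count lower in the fibroblast class was 1 in place of 3 after thinning, when 7 members were tested. The log2 ratio of Tgfa in fibroblasts, from 4 UMIs, was 0.87 with the mean over cells. Of 315 single ratios, 292 kept their call or stayed without one, 15 passed the call only under the alternative, 7 lost it and 1 reversed. For ratios that stayed without a call, a change of direction was not counted. With all barcodes Nrg1 in fibroblasts was called higher (1.17), Erbb2 in fibroblasts missed the call (0.94), and Egfr in tumour cells and Hbegf in macrophages were called lower (-1.90 and -1.73). The causes were not tested. Leaving out cells that met more than 1 class rule changed no call of the 40 ratios. No alternative bears on doublets within a class. No paired analysis was possible because 1 library was analysed. Erbb2, Erbb3 and Btc are limited by depth.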
